A study of Mus musculus with 9 samples.

Results

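Collagen genes were followed in whole-lung RNA from BALB/c mice challenged with ovalbumin (OVA), a model of allergic airway inflammation, and from mice given phosphate-buffered saline (PBS). The members were the genes whose symbol in the deposited table had the form Col, a number, a and a number, each represented by its probe with the highest mean intensity. They numbered 41 of 25753 genes and were served by 55 probes, and all 41 had a value on every array. A curated mouse gene table (RefSeq) held 44 collagen genes, and the 3 that were not among the symbols (Col6a4, Col6a5 and Col26a1) were not analysed here. The lungs came from mice of about 12 weeks of age. There were 9 two-colour arrays, on which, by the labels, a pool of the PBS lungs carried Cy3 (channel 1) and a single lung sample Cy5 (channel 2), after 2 rounds of RNA amplification. The single sample was given as a PBS lung on 4 arrays and an OVA lung on 5, called PBS arrays and OVA arrays here. The labels number the lungs as replicates without saying whether each was a separate mouse, and the spread behind each p-value may thus be technical. The probes averaged under 0.1 on the deposited intensity scale, which is written in steps of 0.01, for 12 of the 41 members.

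Collagens are secreted proteins whose chains wind around each other in trimers, and each gene encodes one chain. Fibrillar collagens (types I, II, III, V, XI, XXIV and XXVII) pack into the fibres that give the walls of airways, vessels and alveoli their tensile strength. Type IV collagen forms the meshwork of basement membranes, the sheets under epithelium and endothelium, and the remaining types bind to fibres, form beaded filaments or anchoring fibrils, or span the cell membrane. Deposition of collagen beneath the airway epithelium is a known feature of asthma.

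Before the collagens, the direction of the ratios was examined with Clca1, a gene of mucus-producing airway cells known to be induced in allergic lungs. On the PBS arrays Clca1 had mean intensities of 33.6 (channel 1) and 33.3 (channel 2), and on the OVA arrays of 0.362 (channel 1) and 36.4 (channel 2). The low level thus stood in channel 1 of the OVA arrays, labelled as the PBS pool, and the PBS arrays were high in both channels, which goes against the labels. The ratio of channel 2 to channel 1 was 6.69 log2 units higher on the OVA arrays than on the PBS arrays for this gene. All signed values below are this deposited log2 ratio, OVA arrays minus PBS arrays. The words "higher", "lower", "rises" and "falls" refer to this ratio, and not to a direction in OVA lungs. The summed intensity of 5 adipose tissue genes varied in channel 2 of the PBS arrays, from 1.21 to 4.93, and little in their channel 1, from 2.49 to 2.62. On the OVA arrays it varied in channel 1, from 3.16 to 9.18, and little in channel 2, from 2.46 to 2.67. The labels put the pool in channel 1 of every array, and this spread on the OVA arrays goes against them. Which RNA each channel of either kind of array held cannot be settled from the files.

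The collagens had the same arrangement. Col3a1, a chain of type III collagen, averaged 29.7 ± 1.28 (channel 1) and 30.05 ± 0.365 (channel 2) on the PBS arrays (intensity, SD, n = 4), against 13.1 ± 1.48 and 32.0 ± 1.23 on the OVA arrays (SD, n = 5). Col4a5, a chain of type IV collagen, had 0.750 ± 0.0316 and 0.767 ± 0.0655 on the PBS arrays, against 1.36 ± 0.114 (channel 1) and 0.724 ± 0.0658 (channel 2) on the OVA arrays. For both genes channel 1 of the OVA arrays stood apart from the other 3 sets of values, low for Col3a1 and high for Col4a5. Of the 22 collagens that passed the test on the ratio, described next, 18 also passed it on channel 1 alone, all 18 with the opposite sign. Channel 1 alone was higher in 7 collagens and 15.6% of all genes, and lower in 11 and 12.0%. In limma's test of channel 2 alone none of the 41 passed, 1 of them was at an unadjusted p under 0.05, and over all genes 2 (0.00778%, both lower) passed and 930 were at an unadjusted p under 0.05. 

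**Figure D1:**
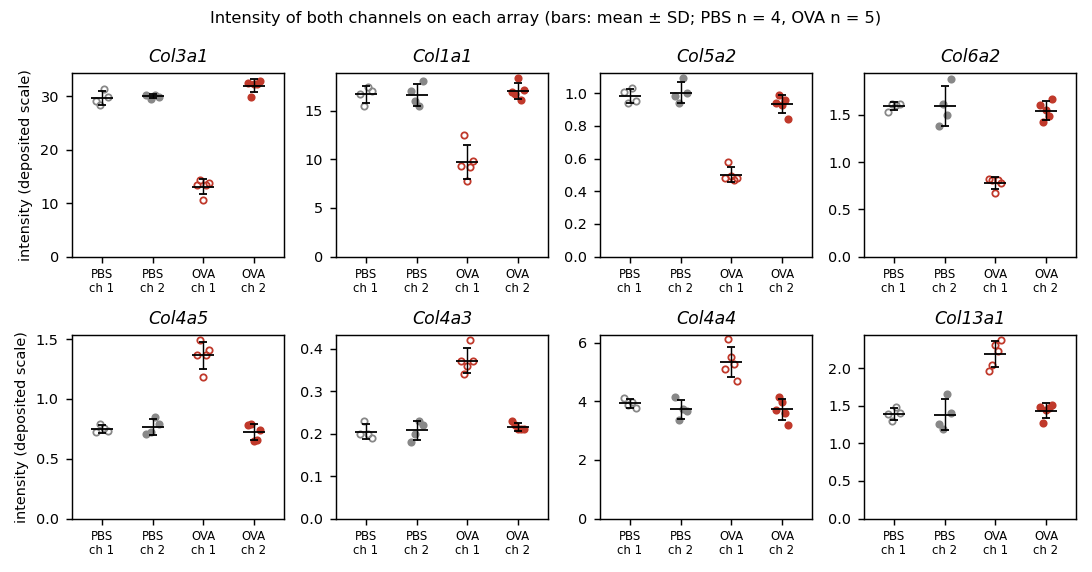
Deposited intensity (vertical axes, starting at 0) of 8 collagen genes in channel 1 (open points) and channel 2 (filled points) of the 4 PBS arrays (grey) and 5 OVA arrays (red), with mean ± SD. Channel 1 of the OVA arrays lay below the other sets for Col3a1, Col1a1, Col5a2 and Col6a2 and above them for Col4a5, Col4a3, Col4a4 and Col13a1.

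The comparison of OVA with PBS lungs was the one named in the study's design. Among the 41 collagens, 13 were higher and 9 lower on the OVA arrays at an adjusted p under 0.05 (limma, Benjamini-Hochberg over the 25712 genes tested). Over all genes 17.3% were higher and 23% lower, 40.3% in all. Among members with a mean intensity of at least 0.1, 37.9% were higher and 31% lower, against 23.9% and 31.2% of all genes that bright. The median log2 change was 0.05 over the collagens and −0.02 over all genes. The collagen median was 0.0003 without PBS replicate 3 and 0.0853 without PBS replicate 2. With quantile-normalised ratios 9 collagens were higher and 1 was lower, where 8.49% and 9.14% of all genes passed. With the OVA ratios turned in sign 9 were higher and 14 lower, against 22.5% and 16.5% of all genes. In 12 collagens every OVA array lay above every PBS array, and in 6 every OVA array lay below, against 14.8% and 19.7% of all genes, 34.5% together. In bulk tissue, fewer cells of a type and less RNA per cell cannot be told apart.

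The 3 classes of collagen differed in their counts. Of the 11 fibrillar genes 7 were higher (63.6%) and 1 lower (9.09%), against 17.3% and 23% of all genes, with a median log2 change of 0.42. None of the 6 type IV genes was higher and 3 (50%) were lower, with a median of −0.31, which was −0.17 with quantile-normalised ratios. Of the 24 other collagens 6 were higher (25%) and 5 lower (20.8%), against the same 17.3% and 23% of all genes. Their median was 0.02, which ranged from −0.0205 without PBS replicate 3 to 0.0533 without PBS replicate 2. The median of the fibrillar genes lay between −0.05 and 0.04 on the PBS arrays and between 0.34 and 0.74 on the OVA arrays. For type IV it lay between −0.12 and 0.11 on the PBS arrays and between −0.48 and −0.23 on the OVA arrays, so that neither class overlapped between groups. With the OVA ratios turned in sign the fibrillar genes gave 1 higher and 8 lower, and type IV gave 3 higher and 0 lower. These counts are descriptions of lists and carry no test of their own.

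**Figure D2:**
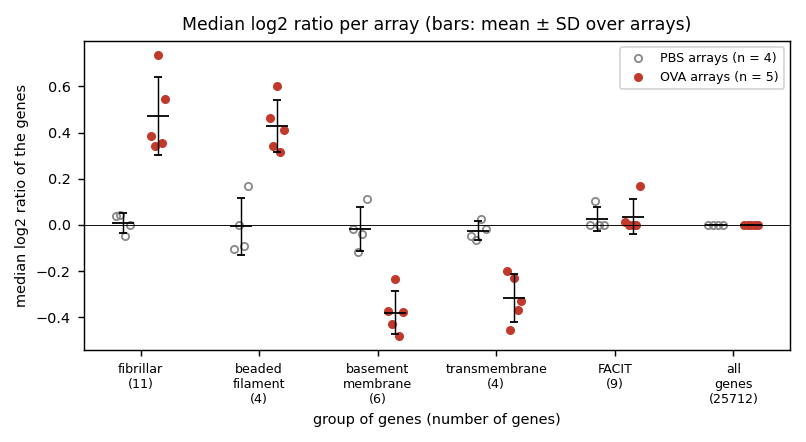
Median log2 ratio (channel 2 over channel 1) of the genes of each group on each array, with mean ± SD over the 4 PBS arrays (open grey) and 5 OVA arrays (red); the number of genes stands under each name. The fibrillar and beaded filament groups lay above their PBS arrays, and the basement membrane and transmembrane groups below them. FACIT names the collagens that bind along fibres.

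**Figure D3:**
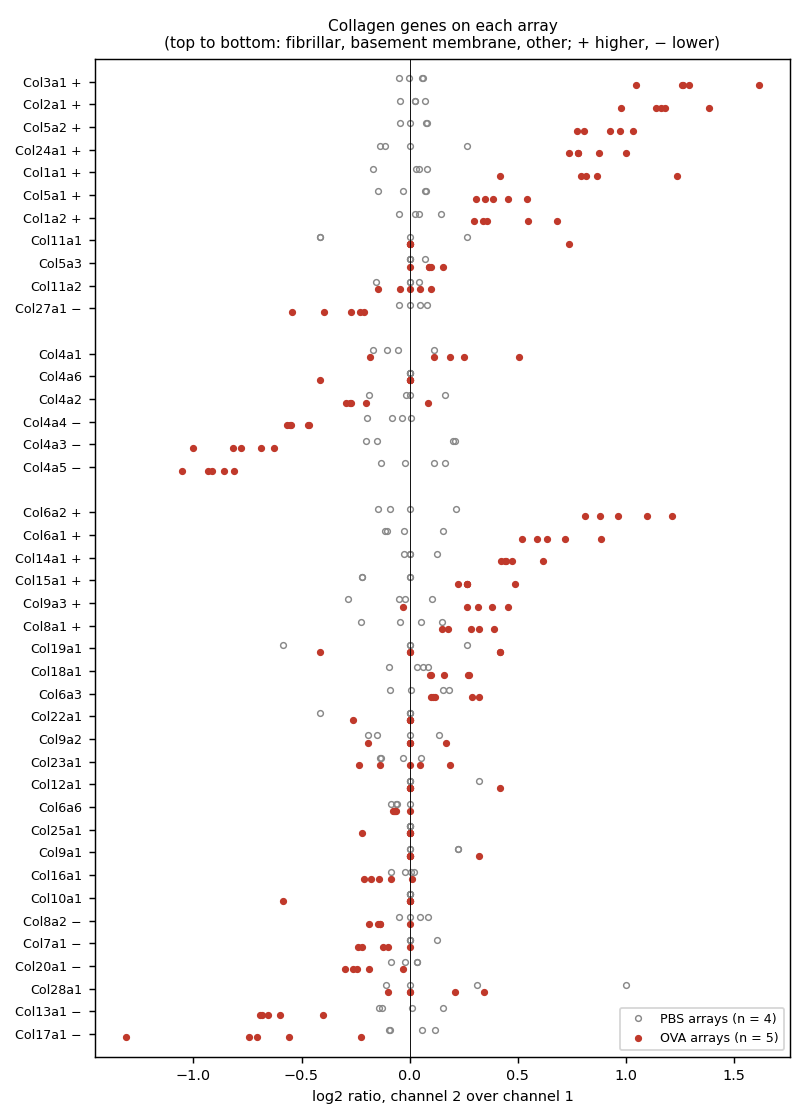
Log2 ratio (channel 2 over channel 1, horizontal axis) of each of the 41 collagen genes on the 4 PBS arrays (open grey) and 5 OVA arrays (red). Genes marked + were higher and genes marked − lower on the OVA arrays in limma's test; Col3a1 and Col2a1 reached the furthest to the right, and Col4a5, Col4a3 and Col17a1 the furthest to the left.

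The 150 bases before the RefSeq start of 4 members are shown because these genes span the range of changes: Col3a1 had the highest change in the deposited ratio, Col1a2 a smaller positive one, and Col4a5 and Col17a1 were among the lowest. With the OVA ratios turned in sign Col3a1 was the lowest at −1.31, and Col4a5 and Col17a1 were among the highest at 0.88 and 0.71. The build is GRCm38.p6, and letters run 5′ to 3′ on the strand of the gene. Capitals mark matches to TATAAA or CCAAT on either strand; GGGCGG was searched as well. The windows are chr1:45311388-45311537 (+) for Col3a1, chr6:4505468-4505617 (+) for Col1a2 and chr19:47692043-47692192 (−) for Col17a1. For Col4a5 only the 101 bases that lie outside any RefSeq gene are shown, chrX:141475269-141475369 (+), and they hold none of the 3 motifs. The Col4a5 window was counted from a transcript start that lies inside the gene, which begins at base 141475370. The GGGCGG of this window, 30 bases before that transcript start, lies in the 49 bases left out.
Col3a1: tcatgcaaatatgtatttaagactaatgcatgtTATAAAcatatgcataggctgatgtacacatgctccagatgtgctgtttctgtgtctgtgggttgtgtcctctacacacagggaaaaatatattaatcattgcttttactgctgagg
Col1a2: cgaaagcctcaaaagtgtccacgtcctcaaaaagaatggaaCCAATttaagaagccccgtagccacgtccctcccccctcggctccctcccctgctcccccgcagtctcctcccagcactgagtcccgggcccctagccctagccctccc
Col4a5: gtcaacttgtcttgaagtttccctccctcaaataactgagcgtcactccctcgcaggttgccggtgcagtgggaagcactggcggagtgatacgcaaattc
Col17a1: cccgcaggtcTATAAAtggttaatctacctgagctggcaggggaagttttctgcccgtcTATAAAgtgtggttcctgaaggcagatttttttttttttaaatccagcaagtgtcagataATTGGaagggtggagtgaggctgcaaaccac
Of the 33 members with a RefSeq window, 4 held TATAAA, 8 held CCAAT and 17 held GGGCGG within these 150 bases. Over 32851 such windows of all genes the shares were 7.57%, 24.5% and 28.6%. A match is a stretch of letters and not a known binding site.

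Among the fibrillar genes, those of types I, III and V are the chains of the common interstitial fibres. Col3a1 read 0.06, 0.06, −0.05 and −0.00 on the 4 PBS arrays and 1.29, 1.05, 1.61, 1.26 and 1.26 on the 5 OVA arrays. Its change of 1.28 ± 0.10 (SE, 2.42-fold, adjusted p = 2.04e-05, limma) was the largest of any collagen, and with the ratios turned it was −1.31, again the largest in size. Col1a1, a chain of type I collagen, read 0.03, 0.04, −0.17 and 0.08 on the PBS arrays and 0.87, 0.42, 1.24, 0.81 and 0.79 on the OVA arrays. Its groups did not overlap although its OVA arrays were spread widely, and it changed by 0.83 ± 0.14 (SE, 1.78-fold, limma adjusted p = 0.00193). Col1a2, the partner of Col1a1 in type I collagen, read 0.14, 0.05, −0.05 and 0.03 and then 0.30, 0.34, 0.68, 0.35 and 0.55. Its change was 0.40 ± 0.08 (limma adjusted p = 0.00515), but it did not pass after quantile normalisation, at an adjusted p of 0.249.

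Col5a2 and Col5a1 encode chains of type V collagen, which starts fibres of type I. Col5a2 read −0.04, 0.00, 0.08 and 0.07 on the PBS arrays and 0.97, 0.77, 0.92, 1.03 and 0.81 on the OVA arrays, a narrow spread in both groups. It changed by 0.87 ± 0.06 (SE, 1.83-fold, limma adjusted p = 9.39e-06). Col5a1 changed less, by 0.42 ± 0.06 (limma adjusted p = 0.000896), and was no longer called with quantile-normalised ratios or when the probes of a gene were averaged. Col5a3, the third chain, changed by 0.07 ± 0.03 and did not pass (limma adjusted p = 0.148). It passed without OVA replicate 4, adjusted p = 0.0312, and with the OVA ratios turned in sign, at −0.10 with an adjusted p of 0.0382.

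The remaining fibrillar genes are known mainly from cartilage or from fewer tissues. Col2a1, the chain of cartilage collagen type II, read 0.07, 0.02, −0.04 and 0.02 on the PBS arrays and 1.16, 0.97, 1.38, 1.14 and 1.18 on the OVA arrays. It changed by 1.15 ± 0.07 (SE, 2.22-fold, limma adjusted p = 6.65e-06) with no overlap. Col2a1 and Col3a1 were the only members past both the test and 2-fold, as were 781 of all genes. Of 10 other cartilage markers 2 were higher (20%) and 2 lower (20%), against 17.3% and 23% of all genes. Chad and Comp were higher, by 0.97 and 0.29 (limma adjusted p = 6.13e-05 and 0.0286), Comp with overlapping groups. Cytl1 and Cnmd were lower, at −0.65 and −0.68, Cnmd on a dim probe. The aggrecan gene Acan changed by −0.06 (limma adjusted p = 0.308). The sum of the 10 on the PBS arrays ranged from 5.41 to 5.62 (channel 1) and 5.42 to 5.74 (channel 2). On the OVA arrays it ranged from 6.29 to 7.34 and from 5.30 to 5.68, with no marker at 0. Cytl1 made up most of the sum on the OVA arrays, with means of 5.60 (channel 1) and 3.59 (channel 2). The part of cartilage in the result was not tested.

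Col24a1, which is expressed in developing bone, changed by 0.83 ± 0.09 (limma adjusted p = 0.000143) on a probe of low intensity, with OVA means of 0.062 (channel 1) and 0.110 (channel 2). Col27a1, a chain found in cartilage, was the only fibrillar gene that was lower. Its PBS arrays read 0.05, 0.00, 0.08 and −0.05 and its OVA arrays −0.39, −0.27, −0.54, −0.23 and −0.21. The change was −0.35 ± 0.07 (limma adjusted p = 0.00449), lost with quantile-normalised ratios at 0.0673. Col11a1 and Col11a2, chains of the cartilage collagen type XI, changed by 0.29 ± 0.21 and 0.02 ± 0.06 and did not pass. For Col11a1 OVA replicate 3 read 0.74 and the other 4 OVA arrays 0, against 0.00, 0.26, −0.42 and −0.42 on the PBS arrays, and without OVA replicate 3 the change was 0.14.

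The arrays kept a similar order across the fibrillar genes that were higher. Among these 7, OVA replicate 3 gave the highest ratio in 5 and OVA replicate 4 in 2, and OVA replicate 2 gave the lowest ratio in 6. Fibroblasts are the main source of fibrillar collagen. Of 12 fibroblast markers 1 was higher (8.33%) and 7 were lower (58.3%), against 17.3% and 23% of all genes, with a median change of −0.47. Fn1, the gene of the matrix protein fibronectin, was the one that was higher, by 1.46. Pdgfra, a receptor gene of lung fibroblasts, changed by −0.93. The sum of the 12 ranged on the PBS arrays from 105.7 to 109.5 (channel 1) and 101.8 to 113.0 (channel 2), and from 106.9 to 121.6 and 95.77 to 107.8 on the OVA arrays. None was at 0. Of 6 smooth muscle markers 3 (50%) were higher, among them Acta2 at 0.66, and none was lower. Their sum ranged from 22.8 to 26.9 in channel 1 of the OVA arrays and from 29.7 to 31.6 in channel 1 of the PBS arrays. It ranged from 28.1 to 31.3 in channel 2 of the PBS arrays and from 30.2 to 32.9 in channel 2 of the OVA arrays. The part of these cells in the collagen changes was not tested.

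Type IV collagen occurs as trimers of Col4a1 and Col4a2 in nearly all basement membranes, of Col4a3, Col4a4 and Col4a5 in those of the kidney glomerulus and the lung alveolus, and of Col4a5 and Col4a6 in others. The 3 genes of the second kind were lower on the OVA arrays and the other 3 did not pass the test. Col4a5 read −0.02, −0.13, 0.16 and 0.11 on the PBS arrays and −0.81, −0.92, −0.86, −1.05 and −0.93 on the OVA arrays. Its change of −0.94 ± 0.07 (SE, 1.92-fold lower, limma adjusted p = 1.69e-05) was the lowest of any collagen, and with the ratios turned its 0.88 was the highest. Col4a3 read −0.15, −0.20, 0.20 and 0.21 and then −0.69, −0.63, −0.78, −1.0 and −0.82. Its change was −0.80 ± 0.11 (limma adjusted p = 0.000639). Col4a4 read 0.01, −0.20, −0.08 and −0.04 and then −0.47, −0.56, −0.47, −0.55 and −0.55, the tightest OVA values of the class. It changed by −0.44 ± 0.05 (limma adjusted p = 9.21e-05). With quantile-normalised ratios Col4a5 kept its call, and Col4a3 and Col4a4 lost theirs at adjusted p of 0.0906 and 0.193.

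Col4a1 and Col4a2, the widespread pair, overlapped between the groups. Col4a1 read −0.05, −0.10, −0.17 and 0.11 on the PBS arrays and −0.18, 0.11, 0.50, 0.18 and 0.25 on the OVA arrays. Its change of 0.23 ± 0.13 had a 95% interval from −0.07 to 0.52 and did not pass (limma adjusted p = 0.206), but it passed without OVA replicate 1, at 0.0383. Col4a2 read −0.02, 0.00, −0.19 and 0.16 and then −0.28, −0.30, 0.08, −0.27 and −0.20. OVA replicate 3 lay apart from the other 4, and the change of −0.18 ± 0.10 (95% interval from −0.40 to 0.04, limma adjusted p = 0.175) passed without that array, at 0.0265. Col4a6 read 0.00 on 8 arrays and −0.42 on OVA replicate 4, on a probe with mean intensities of 0.05 to 0.06.

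Endothelial and alveolar type 1 cells lie on basement membranes, and most of their markers were lower. Of 6 endothelial markers 5 (83.3%) were lower, against 23% of all genes, with a median change of −0.42. Kdr, a receptor for vascular growth factor, changed by −1.04. Alveolar type 1 cells are the flat cells of the gas exchange surface. Of their 5 tested markers 4 (80%) were lower, among them Cav1 at −0.98, and Pdpn was higher at 0.33. Other lists differed: smooth muscle gave 3 higher and 0 lower of 6, and mesothelium 0 higher and 1 lower of 5. The endothelial sum ranged from 14.97 to 15.81 and 14.3 to 17.8 in channels 1 and 2 of the PBS arrays, and from 20.8 to 25.9 and 15.3 to 16.4 on the OVA arrays. The alveolar type 1 sum ranged from 62.9 to 69.1 and 60.9 to 71.5, and then from 84.6 to 90.3 and 62.4 to 65.9. No marker of either list was at 0. Both sums therefore stood apart in channel 1 of the OVA arrays, as Col4a3, Col4a4 and Col4a5 did, and their part in the type IV changes was not tested.

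Type VI collagen forms beaded filaments around cells, and its chains Col6a1, Col6a2 and Col6a3 make up the common trimer. Col6a2 read −0.15, 0.00, −0.09 and 0.21 on the PBS arrays and 0.96, 0.81, 1.21, 0.88 and 1.1 on the OVA arrays. It changed by 1.00 ± 0.10 (SE, limma adjusted p = 9.30e-05), with all OVA arrays above all PBS arrays. Col6a1 read −0.11, −0.03, −0.10 and 0.15 and then 0.63, 0.59, 0.88, 0.52 and 0.72, a change of 0.69 ± 0.08 (limma adjusted p = 0.000259). Col6a3 read −0.09, 0.15, 0.00 and 0.18 and then 0.29, 0.10, 0.32, 0.12 and 0.11. These overlapped, and the change of 0.12 ± 0.07 had a 95% interval from −0.05 to 0.30 (limma adjusted p = 0.239). Col6a6, a further chain, changed by −0.00 ± 0.03. Both passed with the OVA ratios turned in sign, Col6a3 at −0.25 and Col6a6 at 0.11 (limma adjusted p = 0.0297 and 0.0110).

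The FACIT collagens, which bind along the surface of fibres, gave 2 higher and 1 lower of 9 (22.2% and 11.1%), against 17.3% and 23% of all genes. Col14a1, which regulates the width of fibres, changed by 0.46 ± 0.05 (limma adjusted p = 0.000118), and its OVA arrays ran from 0.42 to 0.61 against −0.03 to 0.13 on the PBS arrays. Col9a3, a chain of type IX collagen, changed by 0.34 ± 0.11 (limma adjusted p = 0.0391), with OVA replicate 4 at −0.03 among the PBS values. Leaving out PBS replicate 1, 3 or 4, or OVA replicate 1, 2, 3 or 5, ended the call. Col20a1 changed by −0.20 ± 0.06 (limma adjusted p = 0.0237), a call lost without PBS replicate 1, 3 or 4 and without OVA replicate 3, 4 or 5. Col9a1, Col9a2, Col12a1, Col16a1, Col19a1 and Col22a1 did not pass, and 5 of these 6 had probes averaging under 0.1. Col16a1, the brighter one, changed by −0.10 ± 0.05 and passed without OVA replicate 1 and with array weights, the lowest adjusted p being 0.0220, and with the ratios turned, at 0.14 with an adjusted p of 0.0435.

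The transmembrane collagens gave 2 lower of 4 (50%, against 23% of all genes). Col13a1, found at cell adhesions, read −0.14, −0.13, 0.16 and 0.01 on the PBS arrays and −0.40, −0.69, −0.68, −0.60 and −0.66 on the OVA arrays. It changed by −0.58 ± 0.08 (limma adjusted p = 0.000561), a call lost with quantile-normalised ratios at 0.125. Col17a1, a part of the hemidesmosomes that hold epithelial cells to their basement membrane, read −0.10, 0.12, 0.06 and −0.09 and then −0.56, −1.31, −0.23, −0.71 and −0.74. All its OVA arrays lay below the PBS arrays, with OVA replicate 2 the lowest by a wide margin, and the change was −0.70 ± 0.19 (limma adjusted p = 0.0181). Channel 1 of OVA replicate 2 also held RNA of squamous epithelium markers at a sum of 50.5 over 5 genes, where the other OVA arrays had 0.57 to 0.78 and the PBS arrays 0.69 to 0.90. The sum in channel 2 was 0.64 to 0.95 on the PBS arrays and 0.61 to 3.23 on the OVA arrays, and no marker was at 0. Without OVA replicate 2 Col17a1 changed by −0.55 (limma adjusted p = 0.00903), and without PBS replicate 2 it did not pass (0.0524), nor with quantile-normalised ratios. Col23a1 and Col25a1 changed by 0.03 ± 0.09 and −0.04 ± 0.05.

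Col15a1 and Col18a1, the multiplexins of the basement membrane zone, had all OVA arrays above all PBS arrays. Col15a1 changed by 0.41 ± 0.07 (limma adjusted p = 0.00223) on a probe averaging 0.0611, and Col18a1 changed by 0.16 ± 0.06 and just missed the threshold (limma adjusted p = 0.0520). Col18a1 passed without OVA replicate 2 or 4, with an offset of 0.05, within-array loess or without the dimmest genes, the lowest adjusted p being 0.0301, and with the ratios turned, at −0.20 with an adjusted p of 0.0218. Col15a1 did not pass when turned (adjusted p = 0.0791). Col7a1, which makes the anchoring fibrils under epithelium, changed by −0.17 ± 0.05 (limma adjusted p = 0.0383), and the call was lost without any 1 of the 4 PBS arrays and without OVA replicate 1, 2, 3 or 5. Col8a1 and Col8a2, chains of the short-chain type VIII collagen of vessels, changed in opposite directions, by 0.28 ± 0.08 and −0.14 ± 0.04 (limma adjusted p = 0.0258 and 0.0307). Leaving out PBS replicate 1 or 3 or 1 of OVA replicates 2, 3 and 4 ended the call of Col8a1, and leaving out 1 of PBS replicates 1, 2 and 4 or of OVA replicates 2 to 5 that of Col8a2. Col10a1 and Col28a1 changed by −0.12 ± 0.12 and −0.21 ± 0.22 on probes averaging under 0.1.

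Other probes of the same gene did not always follow the one shown. Both probes of Col1a1 gave alike values, 0.83 and 0.82, and both of Col14a1 (0.46 and 0.67) and Col4a4 (−0.44 and −0.30) had the same direction past the threshold. The second probe of Col5a1 was lower, by −0.22 (limma adjusted p = 0.00586), against 0.42 on the brighter one. Col6a3 gave 0.12, 0.26 and −0.51 on its 3 probes, the last 2 past the threshold in opposite directions. The probes of Col8a1 gave 0.28, −0.41 and 0.27, of which the first 2 passed. Col24a1 gave 0.83 and 0.04, Col5a2 0.87 and 0.18, and Col27a1 −0.35 and −0.08, where in each gene only the first passed. Col20a1 gave −0.20 and 0.08, of which the first passed. The direction of Col5a1, Col6a3 and Col8a1 thus depended on the probe, and which transcript each probe detects was not analysed here.

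Chains that meet in one trimer, or whose genes form a pair, were compared within each array. The difference of the 2 log2 ratios was tested in 13 pairs with a two-sided exact permutation test over the 126 splits of the arrays, whose smallest p is 0.0159, adjusted over the 13 pairs. In 11 pairs the difference passed an adjusted p of 0.05. Several pairs share a chain and are not independent. Col1a1 minus Col1a2 was 0.43 greater on the OVA arrays, and Col1a1 minus Col3a1 was −0.45 (both exact p = 0.0159, adjusted 0.0229). Within type IV, Col4a1 minus Col4a2 was 0.41, Col4a1 minus Col4a3 was 1.02, each at the same p. Col4a5 minus Col4a6 was −0.86 at that p as well, but Col4a6 read 0.00 on 8 arrays on a dim probe, so this value carries little beyond the change of Col4a5 itself. Col4a3 minus Col4a4 was −0.35 (exact p = 0.0317, adjusted 0.0375). 

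Within type VI, Col6a1 minus Col6a2 was −0.31 and Col6a1 minus Col6a3 was 0.57, both at the smallest p. So were Col5a1 minus Col5a2 at −0.46 and Col8a1 minus Col8a2 at 0.42, while Col15a1 minus Col18a1, the first on a dim probe, was 0.25 (exact p = 0.0317, adjusted 0.0375). Col9a1 minus Col9a2 and Col11a1 minus Col11a2, all but Col11a2 on dim probes, were −0.09 and 0.27 (exact p = 0.492 and 0.222). Without PBS replicate 2 or PBS replicate 4 no pair passed the adjusted threshold; with 3 PBS arrays fewer splits are possible and the smallest p is larger. Without any other 1 array 9 or 10 passed.

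**Figure D4:**
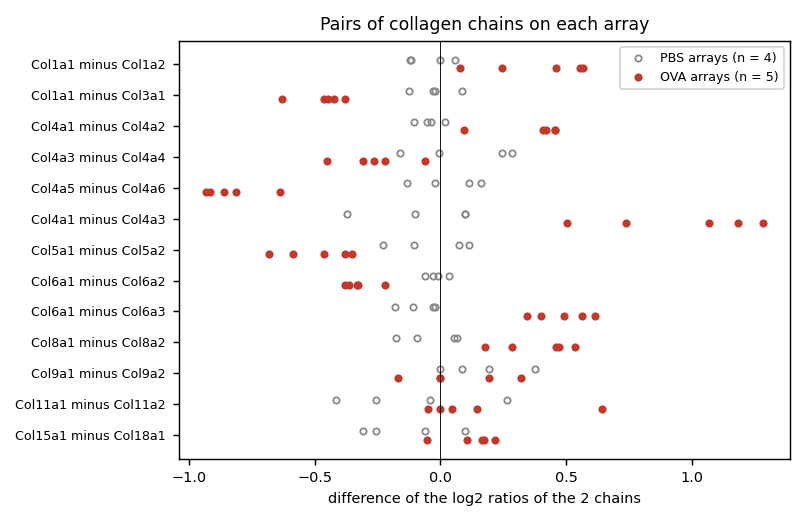
Difference of the log2 ratios of 2 collagen chains (horizontal axis) on each of the 4 PBS arrays (open grey) and 5 OVA arrays (red), for 13 pairs. The groups did not overlap for Col4a1 minus Col4a3, at 0.50 to 1.28 on the OVA arrays and −0.37 to 0.10 on the PBS arrays, and did overlap for Col9a1 minus Col9a2.

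Several members are neighbours in the genome (GRCm38.p6, RefSeq). Col3a1 and Col5a2, both higher by 1.28 and 0.87, lie 24624 bases apart on chromosome 1. Col6a2 and Col6a1, higher by 1.00 and 0.69, lie 85161 bases apart on chromosome 10. Col4a4 and Col4a3, both lower, overlap by 114 bases on chromosome 1. Col4a1 and Col4a2, which did not pass, overlap by 85 bases on chromosome 8. Col4a6 and Col4a5 on the X chromosome are 1274 bases apart and gave −0.08 and −0.94, the first on a dim probe. Col9a1 and Col19a1, 4944 bases apart on chromosome 1, both did not pass. Col9a3 and Col20a1, 361130 bases apart on chromosome 2, passed in opposite directions, at 0.34 and −0.20. Col6a1 and Col18a1, 326133 bases apart on chromosome 10, gave 0.69 and 0.16, and Col18a1 did not pass.

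Of 51 genes that modify, cut, cross-link, bind or degrade collagen, 49 were tested, and 14 were higher (28.6%) and 15 lower (30.6%), with a median change of 0.02. Over all genes the shares were 17.3% and 23%. Among all genes with a mean intensity of at least 0.1 they were 23.9% and 31.2%, a filter that was not applied to the list. With the OVA ratios turned in sign 14 were higher and 14 lower. Ctsk, the collagen-degrading protease cathepsin K, had intensities of 3.83 in both channels of the PBS arrays and of 0.524 and 3.96 in channels 1 and 2 of the OVA arrays. Its log2 change was 2.92 ± 0.05 (SE, 7.55-fold, limma adjusted p = 5.31e-08), larger than that of any collagen, and −2.92 when turned. Tgfbi, a matrix protein that binds collagen, changed by 1.34 ± 0.06, and the collagenases Mmp13 and Mmp14 by 1.08 ± 0.09 and 0.90 ± 0.10. These 4 genes were named because their rises were the largest of the list. In 13 of the 49 genes, these 4 among them, every OVA array lay above every PBS array, and in 15 every OVA array lay below. Over all genes the shares were 14.8% and 19.7%. With the ratios turned the 4 were lower.

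The lowest ratios on the OVA arrays were those of Pcolce2, which enhances the trimming of procollagen, at −1.28 ± 0.05 (limma adjusted p = 4.97e-07), and of Dcn and Lum, proteoglycans that coat collagen fibres, at −1.23 ± 0.21 and −1.02 ± 0.22. Turned in sign these 3 read 1.31, 1.34 and 1.04. Itga2, a subunit of a collagen receptor, changed by −0.93 ± 0.18 on a dim probe. P4ha1, a subunit of the prolyl hydroxylase that stabilises the helix, changed by −0.44 ± 0.05 (limma adjusted p = 0.000312). Lox, the enzyme that cross-links fibres, changed by 0.35 ± 0.12 with overlapping groups (limma adjusted p = 0.0455). Bmp1, the protease that trims procollagen, changed by 0.12 ± 0.04 (limma adjusted p = 0.0314). Serpinh1, the collagen chaperone, had no value on the PBS arrays and was not tested. With quantile-normalised ratios 5 genes of the list were higher and 7 lower.

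**Figure D5:**
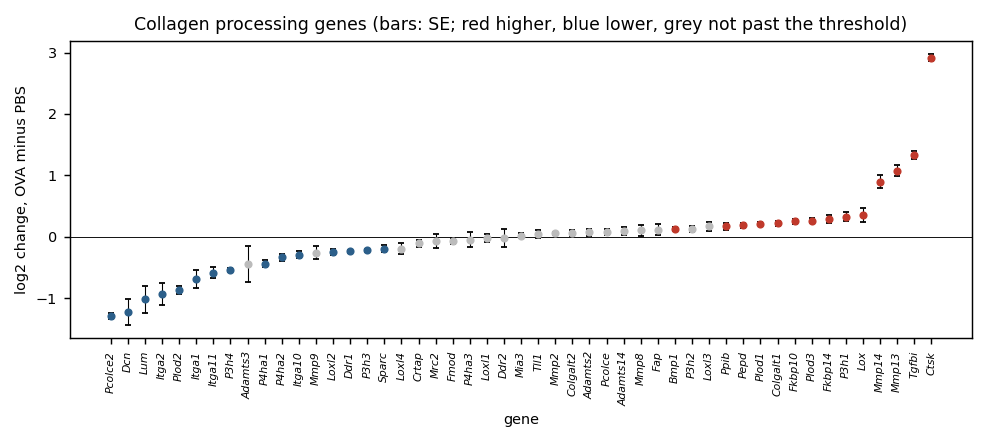
Log2 change between the OVA and PBS arrays (vertical axis, ± SE) of the 49 tested genes that modify, cut, cross-link, bind or degrade collagen. Ctsk stood highest at 2.92 and Pcolce2 lowest at −1.28; red genes were higher, blue genes lower, and grey genes did not pass limma's test.

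The submitters' own error model, given as a p-value for each array, marked 14 collagens under 0.05 on at least 4 of the 5 OVA arrays and 0 on any PBS array, as read from the authors' deposited table. The share of all genes marked in this way was not computed here, so the count cannot be set against one. Over all probes the arrays correlated with each other at 0.705 to 0.823 among the OVA arrays and −0.266 to 0.105 among the PBS arrays. Of 8 lung markers 6 were on the array under their symbols; the surfactant genes Sftpb, Sftpc and Sftpd had bright probes with blank cells on some arrays, and Napsa and Aqp5 were tested. Skeletal muscle, adipose and squamous markers had no gene past the threshold, although their sums in channel 1 reached 22.03, 9.18 and 50.5 on single OVA arrays. In channel 2 of the OVA arrays the highest sums were 1.20, 2.67 and 3.23, and on the PBS arrays the highest in either channel were 0.85, 4.93 and 0.95. Of the mesothelial markers 1 of 5 was lower (20%, against 23% of all genes).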

How the data were processed

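Per the submitters' processing notes, Agilent Feature Extraction 8.5.1.1 was used on the 2-colour arrays. The authors deposited intensities of both channels for 39464 probes, together with a p-value per array, and a table of log10 ratios. No source used here gives their background correction or dye normalisation. The log10 ratios the authors deposited matched log10 of channel 2 over channel 1, and every array's median was 0. No background mark per probe was used here, and the number of arrays limits the precision.

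The log2 ratio of channel 2 to channel 1 was computed from the deposited intensities. Symbols were updated through RefSeq for 3147 probes by synonym and 11 by accession; 9317 probes had no name. The brightest probe stood for each gene. All 25712 genes with enough values were fitted with limma 3.58.1 (R 4.3.3), OVA against PBS, with Benjamini-Hochberg adjustment; the fit was tested on simulated data. Pairs of chains used exact permutation tests. Every member was named; of the 51 processing genes, the 4 largest rises and falls and Lox, Serpinh1, P4ha1 and Bmp1 were. The members and lists were chosen with earlier results of these data known. The alternatives included quantile and loess normalisation, an offset of 0.05, channels alone, turned ratios and leaving out each array.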

Additional observations from a re-analysis of the deposited data

Results flagged for a closer look

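In each group of arrays the highest and lowest log2 ratio of every collagen were set against the others by Dixon's test. Of 82 groups tested, 16 had an array apart from the rest, and 10 of the 16 were on probes with a mean intensity under 0.1. The usual rate of about 1 in 20 by chance does not apply here. Many ratios tie at exactly 0, and 1 step of the intensity scale then sets an array apart.

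On brighter probes, OVA replicate 3 gave 0.08 for Col4a2, where the other OVA arrays lay between −0.30 and −0.20. OVA replicate 5 gave 0.61 for Col14a1, against 0.42 to 0.47. OVA replicate 1 gave 0 for Col8a2, against −0.19 to −0.14, and OVA replicate 2 gave 0 for Col6a6, against −0.08 to −0.06. PBS replicate 3 gave 0.13 for Col7a1 and PBS replicate 2 gave 0.07 for Col5a3, where the other PBS arrays read 0. These were single steps of the scale, with intensities of 0.11 and 0.12 for Col7a1 and 0.20 and 0.21 for Col5a3. For Col6a6 both channels of OVA replicate 2 read 0.20, and on the other OVA arrays they differed by a single step.

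On dim probes, most of the other arrays of the group read exactly 0, and 1 step of the intensity scale made the difference in several. OVA replicate 3 gave 0.74 for Col11a1, with intensities of 0.09 and 0.15 in channels 1 and 2, and 0.49 for Col15a1, against 0.22 to 0.26. OVA replicate 4 gave −0.42 for Col4a6 and −0.58 for Col10a1. OVA replicate 1 gave 0.32 for Col9a1. Col12a1 read 0.32 on PBS replicate 2 and 0.42 on OVA replicate 5. Col22a1 read −0.42 on PBS replicate 3 and −0.26 on OVA replicate 2, and Col25a1 read −0.22 on OVA replicate 2.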

How the results depend on the processing

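Over the alternatives that kept the direction and both channels (18, or fewer where a gene was left out), 9 of the 13 collagens that were higher and 1 of the 9 that were lower (Col4a5) kept their call. Of the 19 others, 13 were called under none of them, and Col4a1, Col4a2, Col5a3, Col11a1, Col16a1 and Col18a1 under at least 1. Among the collagens that were lower, Col4a3, Col4a4, Col13a1 and Col27a1 lost their call only with quantile-normalised ratios. The share of all called genes that kept their call was not computed here. The causes of the differences below were not tested, beyond the fewer arrays of the fits that leave one out.

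With quantile-normalised ratios the counts fell to 2182 higher and 2351 lower over all genes, 1 lower among the collagens, 0 lower among the fibrillar, 1 lower among type IV, 0 lower among the other types, and 5 higher and 7 lower among the processing genes. The type IV median was −0.17 with quantile-normalised ratios and −0.44 without the dimmest genes, and the fibrillar median 0.62 without the dimmest genes. Within-array loess left 2 lower among the other types. With Col7a1, Col15a1, Col17a1 and Col18a1 counted as basement membrane collagens, that class gave 1 higher and 5 lower and the other types 3 lower. With the OVA ratios turned in sign 14 collagens were lower, the fibrillar gave 1 higher and 8 lower, and type IV 3 higher and 0 lower. Of the 22 called collagens 18 passed, all with the opposite sign, and Col7a1, Col8a2, Col9a3 and Col15a1 did not. The opposite sign follows from the turning itself where the PBS ratios lie near 0, and is no separate result.

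Channel 1 alone gave 3097 lower over all genes, 7 higher among the collagens, 1 higher and 7 lower among the fibrillar, 3 higher and 0 lower among type IV, 3 higher among the other types, and 8 lower among the processing genes. Channel 2 alone gave 0 higher and 2 lower over all genes (limma, 930 at an unadjusted p under 0.05), and 0 in either direction for the collagens, the fibrillar, type IV, the other types and the processing genes.

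The replicate block, a term for the replicate number shared by PBS and OVA arrays, left 11 collagens higher and 5 lower, and 1 lower among the other types. The labels do not say that equal numbers pair the samples. The deviations of arrays with the same number correlated at −0.053, −0.034, −0.153 and 0.0, which does not settle whether they were paired.

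Leaving out 1 array gave 3928 to 4400 higher and 5213 to 5838 lower over all genes, 11 to 14 and 6 to 9 among the collagens, 7 to 8 and 1 among the fibrillar, 0 to 1 and 3 to 4 among type IV, 4 to 6 and 2 to 5 among the other types, and 11 to 14 and 14 to 17 among the processing genes. The single type IV gene that became higher was Col4a1, without OVA replicate 1. The other types had 2 lower when PBS replicate 1, 2 or 4 was left out, or OVA replicate 3 or 5. Collagens that were lower numbered 6 when PBS replicate 1, 2 or 4 was left out, or OVA replicate 5. The pairs of chains past the threshold ranged from 0, without PBS replicate 2 or 4, to 10.

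Dim probes limit 12 members, whose intensities are written in steps of 0.01, and 7 members had a ratio of exactly 1 on at least 5 arrays.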
